A study of Bos taurus with 6 samples.

Results

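The heat shock proteins are the molecular chaperones that bind unfolded or unstable proteins in the cytosol, the endoplasmic reticulum (ER) and the mitochondrion, and they work with J-domain proteins, nucleotide exchange factors and other cochaperones. Their mRNAs were taken from a table of gene expression in single bovine (Bos taurus) oocytes by symbol: HSPA, HSPB, HSPD, HSPE, HSPH, HSP90 and DNAJ as the start of the symbol, BAG followed by a digit, and the single symbols STIP1, CHORDC1, PTGES3 and AHSA1. The rule itself uses no measured value, but it was chosen with earlier results of these data known. It gave 95 rows with 82 symbols, of 20707 rows in all. Of the 95, 61 reached a mean of 1 RPKM over the 6 libraries and were tested, 34 did not, and 8 of those 34 were listed at 0 in every library.

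MII oocytes spent 24 hours in maturation culture and stand at metaphase of meiosis II, the state in which the egg can be fertilised. GV (germinal vesicle) oocytes were taken from the aspirated follicles without maturation and are arrested in meiotic prophase. Both came as cumulus-oocyte complexes from ovaries collected at an abattoir, no treatment or genotype is named for either, and a further label calls all samples matured in vitro, so the stage label was used. Each library was made from 1 oocyte, and its cDNA was started from poly(A) tails before amplification. A lower level can therefore mean fewer molecules or shorter tails that primed less well, and a higher level more molecules or longer tails. Levels are also relative to the size of the library, so a gene can differ because the rest of the mRNA differs. These cannot be told apart here.

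HSP70 proteins cycle between an ATP-bound open state and an ADP-bound closed state. J-domain proteins bring them substrates and trigger ATP hydrolysis, and nucleotide exchange factors of the HSP110, BAG and HSPBP1 families reopen them. Some substrates are passed on to HSP90 through STIP1, and HSP90 is then driven through its own ATP cycle by cochaperones such as AHSA1 and PTGES3. The oocyte stores mRNA for these proteins during growth, and it matures with transcription largely silent.

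Values are RPKM, the reads of a gene divided by the length of its model and by the size of the library, given in the order MII14c, MII15 and MII15c for MII, and GV14, GV14c and GV15 for GV. Depth recovered from the low values was about 31, 21 and 33 M reads in the MII libraries and about 30, 27 and 20 M reads in the GV libraries. Oocyte markers had a summed level of 18821 to 30980 RPKM in MII libraries and 16881 to 21771 RPKM in GV libraries, and all 10 of them passed the filter. Of 14 cumulus and granulosa markers in the table, AMHR2 and PTX3 were at 0 everywhere, FSHR, AMH, INHA and CYP19A1 had means below 1 RPKM, and the summed level was 108.7 to 112 RPKM in MII libraries and 92.2 to 174 RPKM in GV libraries, most of it from HAS2 and STAR. HAS2 averaged 59.5 RPKM in MII libraries and 16.3 RPKM in GV libraries (limma adjusted p = 0.000685) and VCAN 7.99 RPKM in MII libraries and 3.31 RPKM in GV libraries (0.0214). STAR averaged 35.4 RPKM in MII libraries and 101 RPKM in GV libraries (0.00395), and GJA1 6.46 RPKM in MII libraries and 8.91 RPKM in GV libraries (0.648). The part of cumulus cells in the chaperone values was not tested. Leukocyte and blood markers summed to 0 to 0.259 RPKM in MII libraries and 0.372 to 1.38 RPKM in GV libraries, with CD14 and HBB at 0. The library MII15 stood apart from the other MII libraries: it was the lowest of the 3 for 40 of the 61 tested chaperone rows (65.6%), against 56.5% of all tested genes. It also held the fewest genes at 1 RPKM or more, with 8087, 7170 and 7760 in the MII libraries and 8831, 9304 and 8401 in the GV libraries.

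Of the 61 tested rows, 5 were higher in MII and 18 were lower, and 38 did not pass the threshold (limma on log2(RPKM + 1), Benjamini-Hochberg adjusted p under 0.05 over all 8671 genes tested). The 5 higher rows make 8.20% of the tested members, where 13.4% of all tested genes were higher. The 18 lower rows make 29.5%, where 26.9% of all tested genes were lower. Neither share was tested against the background. Libraries of the stages did not overlap for 9 rows higher in MII (14.8%, background 19.8%) and 22 rows lower in MII (36.1%, background 32.1%).

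The median log2 change of the tested members was -0.44, against -0.16 over all tested genes. The scaling of the libraries moves this level: the all-gene median was -0.00 with median-ratio scaling, 0.22 with quantile normalization and -0.07 with TPM scaling. Relative to it the members' median was -0.28 as planned and -0.29, -0.22 and -0.30 under those scalings. Lower rows were 78.3% of the members called as planned, 57.7% with median-ratio scaling, 48.1% with quantile normalization and 65.2% with TPM scaling. The count of higher rows was 12 without MII15, 1 without MII15c and 2 without GV14.

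**Figure D1:**
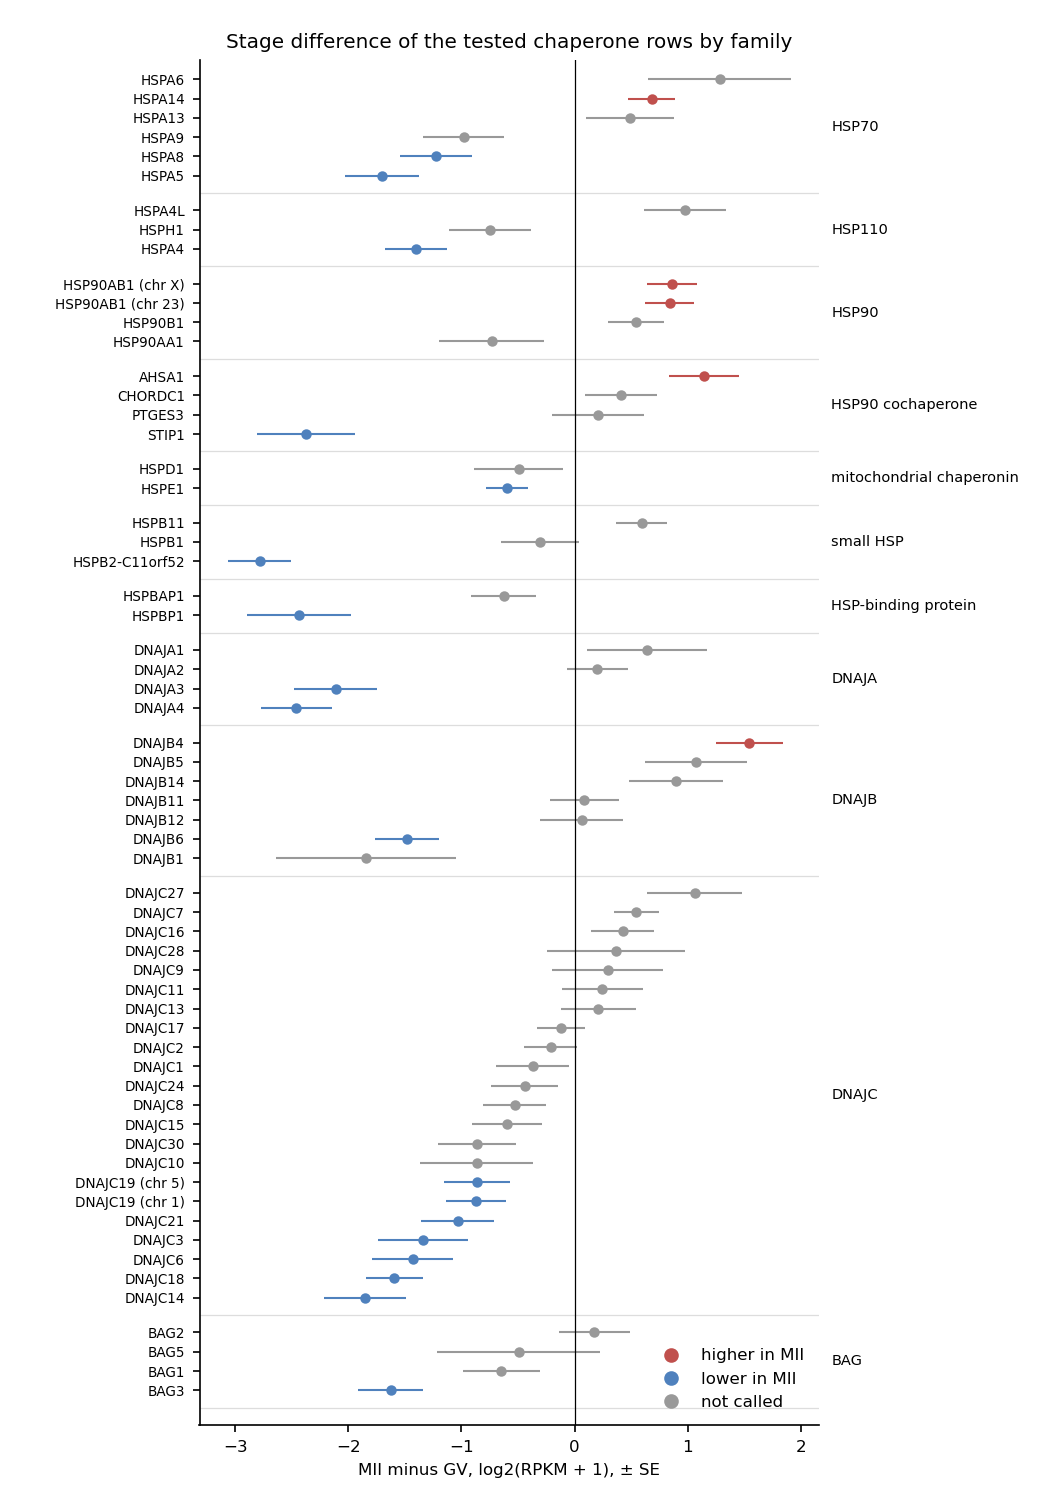
Change of each of the 61 tested chaperone rows (MII minus GV, log2(RPKM + 1), point and standard error from limma), by family from top to bottom, with calls at an adjusted p under 0.05 in colour. The 5 rows higher in MII lie in the HSP70, HSP90, HSP90 cochaperone and DNAJB families, and 7 of the 18 lower rows are DNAJC.

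Of the 6 tested HSP70 rows, 1 was higher in MII, 2 were lower and 3 did not pass, where 13.4% of all tested genes were higher and 26.9% lower. HSPA8, the constitutive cytosolic HSP70 (chromosome 15, positions 34216278 to 34221383, minus strand, in the authors' annotation, whose genome build is not given in the sources used here), was the most abundant of the 95 rows in every GV library. It had 537, 219 and 254 RPKM in MII libraries, against 689, 759 and 737 RPKM in GV libraries. All MII libraries lay below all GV libraries, with MII14c well above the other MII libraries. HSPA8 fell by 1.23 ± 0.32 on the log2 scale (SE, adjusted p = 0.0142). The adjusted p was 0.066 without MII15c, 0.131 without GV14c and MII15c together and 0.054 with no filter on low values.

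HSPA5, the HSP70 of the ER lumen also called BiP, had 20.5, 10.3 and 11.3 RPKM in MII libraries, against 51.2, 32.7 and 57.3 RPKM in GV libraries. The stages did not overlap. HSPA5 fell by 1.70 ± 0.33 (SE, adjusted p = 0.00354), and it passed the threshold under all 17 alternatives. HSPA9, the mitochondrial HSP70 mortalin, had 31.0, 10.5 and 15.9 RPKM in MII libraries and 37.8, 37.5 and 30.9 RPKM in GV libraries. The highest MII library lay just above the lowest GV library, and the log2 change of -0.98 did not pass (adjusted p = 0.0552). Without MII14c it did, with an adjusted p of 0.00846.

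HSPA14, an HSP70 relative that binds ribosomes together with the J-domain protein DNAJC2, moved the other way. It had 47.2, 54.5 and 50.8 RPKM in MII libraries, against 29.3, 29.7 and 35.0 RPKM in GV libraries. The MII values sat close together and above all GV values. HSPA14 rose by 0.68 ± 0.21 (SE, adjusted p = 0.028), and the adjusted p was 0.0904 without MII15c, 0.091 without GV14 and 0.0606 without GV14c. With the replicate block of numbers 14 and 15 it was 0.0633, and without GV14c and MII15c together it was 0.164.

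HSPA6, in human cells an HSP70 made only under stress, had 7.63, 0.757 and 9.01 RPKM in MII libraries and 1.54, 1.83 and 0.466 RPKM in GV libraries. MII15 lay within the GV range and the other MII libraries above it, and the log2 change of 1.28 had an adjusted p of 0.136 (0.00392 without MII15). HSPA13, an HSP70 of the ER, averaged 6.35 ± 1.38 RPKM in MII libraries and 4.54 ± 2.27 RPKM in GV libraries (SD, n = 3 each, adjusted p = 0.348).

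Of the stress-inducible cytosolic HSP70 genes, the row of HSPA1B had almost no reads at either stage. HSPA1B, which the authors' annotation names HS71A_BOVIN (chromosome 23, positions 27329886 to 27333823), had 0 reads in all 3 MII libraries, and 2, 1 and 1 reads in GV14, GV14c and GV15. Its neighbour HSPA1L, 520 nt away, had 5 reads in MII14c and 0 in the other MII libraries and in all GV libraries. A level of 3 reads on the HSPA1B model is 0.0233 to 0.0376 RPKM in these libraries, so no difference was detectable at this depth. No row carried the symbol HSPA1A or HSPA2, so neither was analysed here. How reads matching more than 1 gene were counted is not stated, so few reads on the HSPA1B row need not mean little mRNA. HSPA12A and HSPA12B, distant relatives of the family, stayed below the tested level.

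Summed over the family, HSP70 mRNA came to 648, 303 and 347 RPKM in MII libraries, against 815, 864 and 866 RPKM in GV libraries. The stages did not overlap, and the two-sided exact permutation p was 0.1, the smallest that 3 libraries against 3 allow. HSPA8 made up 14.7%, 10.1% and 8.34% of all chaperone RPKM in the MII libraries, against 20.9%, 21.3% and 22.1% in the GV libraries (exact p = 0.1). This share and the family sum were chosen after their values were seen.

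Among the exchange factors, HSPA4 and its close relative HSPA4L, both HSP110 proteins, differed in direction. HSPA4 had 13.7, 7.85 and 13.3 RPKM in MII libraries, against 32.9, 29.4 and 32.3 RPKM in GV libraries. It fell by 1.40 ± 0.27 (SE, adjusted p = 0.00371), with no overlap and with the call kept under all 17 alternatives. HSPA4L had 203, 65.6 and 135 RPKM in MII libraries, against 64.9, 64.3 and 55.6 RPKM in GV libraries.

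The lowest MII library, MII15, lay just above the highest GV library for HSPA4L, and its log2 change of 0.98 did not pass (adjusted p = 0.0592). It passed under 7 of the 17 alternatives, among them median-ratio scaling (0.0115), the replicate block (0.02) and the fit without MII15 (0.0029). The ratio of HSPA4L to HSPA4, which does not depend on library scaling, was 14.8, 8.36 and 10.2 in MII libraries, against 1.97, 2.19 and 1.72 in GV libraries. The stages did not overlap (exact permutation p = 0.1), and the ratio was chosen after the values were seen. HSPH1, the third HSP110, had 39.6, 14.2 and 22.1 RPKM in MII libraries and 47.4, 30.4 and 43.8 RPKM in GV libraries, which overlapped (adjusted p = 0.129, and 0.0262 without MII14c).

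HSPBP1, an exchange factor that binds the HSP70 ATPase domain, had 0.732, 0 and 0.662 RPKM in MII libraries, against 6.77, 12.8 and 3.29 RPKM in GV libraries. It was below 1 RPKM in all MII libraries. HSPBP1 fell by 2.44 ± 0.46 (SE, adjusted p = 0.00324), and with a pseudocount of 0.1 it fell by 4.07. HSPBAP1, named for its binding to HSPB1, had 7.99, 6.64 and 10.1 RPKM in MII libraries and 12.1, 11.2 and 16.5 RPKM in GV libraries, with no overlap and no call (adjusted p = 0.11).

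BAG3, which links HSP70 to small heat shock proteins in the clearance of aggregates, had 1.41, 1.31 and 1.14 RPKM in MII libraries, against 5.92, 5.63 and 6.64 RPKM in GV libraries. Its libraries were tightly grouped at both stages and far from overlapping. BAG3 fell by 1.63 ± 0.29 (SE, adjusted p = 0.00234) and kept the call under the 16 alternatives that include it, all but the filter at 5 RPKM.

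The other BAG rows did not pass. BAG1, a cytosolic and nuclear exchange factor, had 2.0, 1.21 and 1.12 RPKM in MII libraries and 3.74, 1.70 and 3.22 RPKM in GV libraries (adjusted p = 0.161). BAG2, an inhibitor of the HSP70-bound ubiquitin ligase STUB1, had 2.65, 4.84 and 3.94 RPKM in MII libraries and 3.49, 3.47 and 2.64 RPKM in GV libraries (adjusted p = 0.685). The stages overlapped for both. The tested one of the pair of BAG5 rows, ENSBTAG00000043509, had 1.56, 6.39 and 0.298 RPKM in MII libraries and 1.62, 9.74 and 1.44 RPKM in GV libraries, a wide spread within each stage (adjusted p = 0.618). BAG4 and the other BAG5 row stayed below the tested level.

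**Figure D2:**
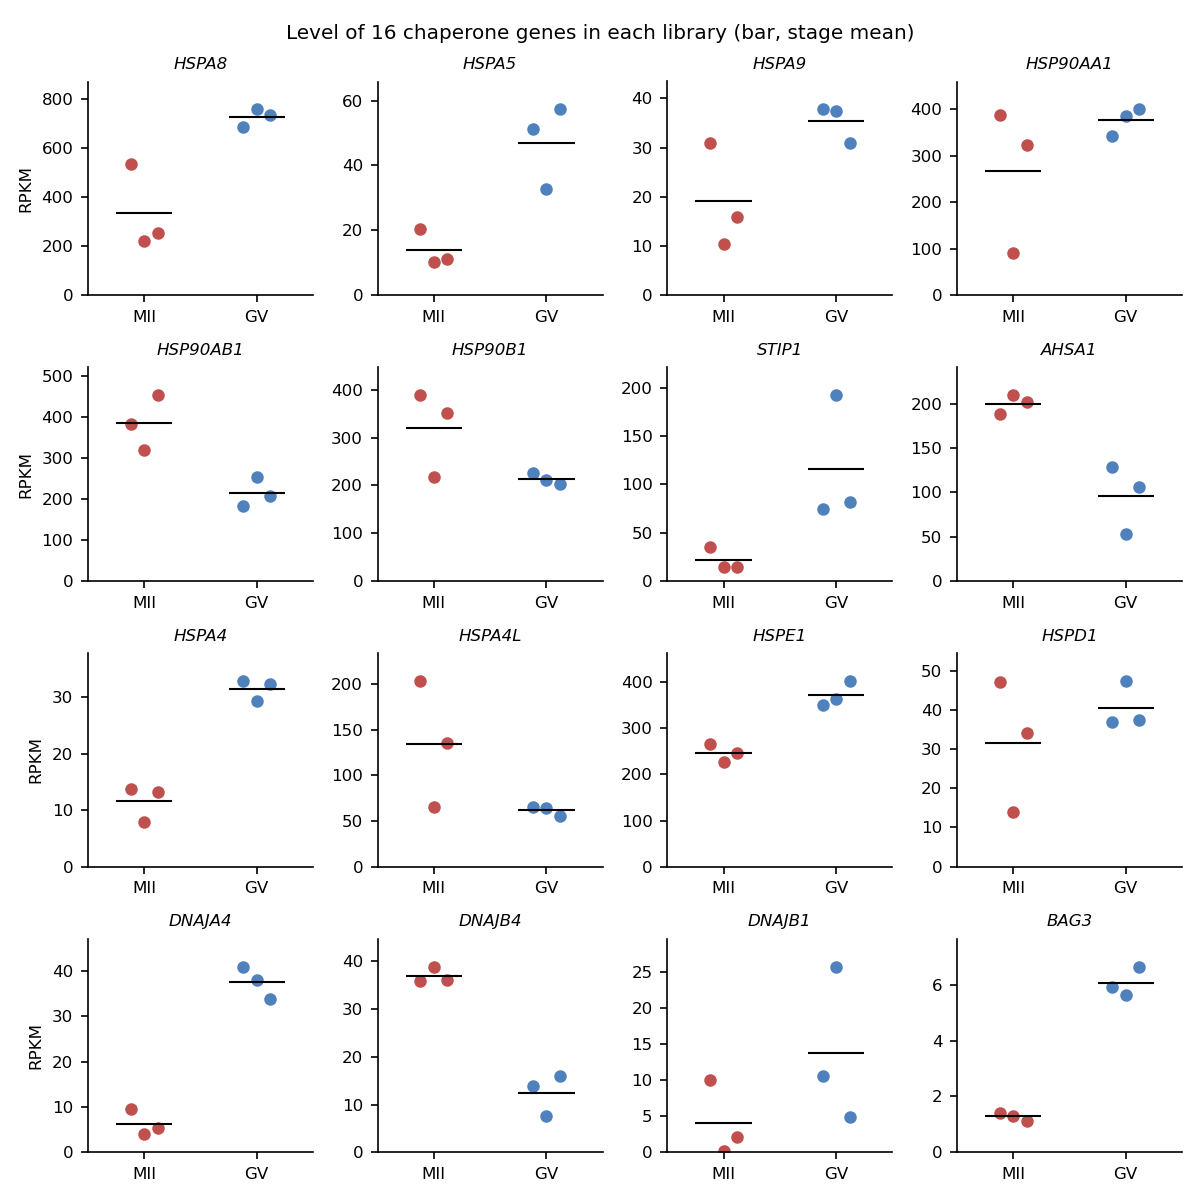
Level (RPKM, linear axes from 0) of 16 chaperone genes in each library, MII on the left and GV on the right of each panel, with a bar at the stage mean. HSPA8, HSPA5, HSPA4, HSPE1, STIP1, DNAJA4 and BAG3 are lower in every MII library than in any GV library. HSP90AB1, AHSA1, DNAJB4 and, by a narrow margin, HSPA4L are higher.

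The balance between the cytosolic HSP90 mRNAs differed between the stages. HSP90AB1, the constitutive form (chromosome 23, positions 17864392 to 17874413, plus strand), had 382, 318 and 453 RPKM in MII libraries, against 182, 252 and 207 RPKM in GV libraries. It rose by 0.84 ± 0.22 (SE, adjusted p = 0.0145), with no overlap, and the adjusted p was 0.0743 without MII15c and 0.0586 without GV14. Without GV14c and MII15c together it was 0.0707. HSP90AA1, the inducible form, had 386, 91.2 and 322 RPKM in MII libraries and 342, 386 and 399 RPKM in GV libraries. MII15 was far below every other library, the stages overlapped, and the log2 change of -0.73 did not pass (adjusted p = 0.24).

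HSP90AA1 was 50.3%, 22.3% and 41.6% of cytosolic HSP90 RPKM in the MII libraries, against 65.2%, 60.5% and 65.8% in the GV libraries. The difference of the means was -25.8 percentage points, with no overlap and an exact permutation p of 0.1. Leaving out 1 library at a time gave -31.9 to -17.9 points.

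A second row with the symbol HSP90AB1, a copy on chromosome X with 2 coding exons (ENSBTAG00000047699), had 35.3, 33.6 and 44.1 RPKM in MII libraries, against 19.1, 20.5 and 20.9 RPKM in GV libraries. It rose by 0.86 ± 0.22 (SE, adjusted p = 0.014, and 0.0734 without MII15c, 0.0523 without GV14 and 0.12 without GV14c and MII15c together). Its level was 8.12% to 10.6% of that of the chromosome 23 row in every library, so the authors' counting may have shared reads between them and its rise is uncertain.

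HSP90B1, the HSP90 of the ER lumen also called GRP94, had 389, 218 and 352 RPKM in MII libraries and 225, 211 and 202 RPKM in GV libraries. MII15 lay inside the GV range, and the log2 change of 0.54 did not pass (adjusted p = 0.109, and 0.013 without MII15). The ER partners HSP90B1 and HSPA5 thus had changes of opposite sign, 0.54 and -1.70, of which the second passed.

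The cochaperones of HSP90 also parted. STIP1, the adaptor that holds HSP70 and HSP90 together (chromosome 29, positions 43107550 to 43124097, plus strand), had 34.8, 14.2 and 14.9 RPKM in MII libraries, against 74.6, 193 and 81.4 RPKM in GV libraries. It fell by 2.38 ± 0.44 (SE, adjusted p = 0.00284) under all 17 alternatives, with GV14c far above the other GV libraries. AHSA1, which activates the HSP90 ATPase (chromosome 10, positions 89715108 to 89723198, plus strand), had 189, 209.9 and 202 RPKM in MII libraries, against 129, 53.0 and 106 RPKM in GV libraries.

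The MII libraries lay close together for AHSA1 and above all GV libraries. AHSA1 rose by 1.14 ± 0.31 (SE, adjusted p = 0.0176), and the adjusted p was 0.061 without MII15c and 0.0545 with no filter. Without GV14c and MII15c together it was 0.0918. The ratio of STIP1 to AHSA1 was 0.184, 0.0674 and 0.0740 in MII libraries, against 0.578, 3.63 and 0.769 in GV libraries, with no overlap (exact permutation p = 0.1). It too was chosen after the values were seen.

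PTGES3, the p23 protein that stabilises closed HSP90, had 21.6, 45.5 and 22.1 RPKM in MII libraries and 36.7, 13.5 and 27.8 RPKM in GV libraries (adjusted p = 0.711). CHORDC1, a zinc-binding HSP90 partner, had 17.6, 8.72 and 16.7 RPKM in MII libraries and 11, 10.9 and 8.58 RPKM in GV libraries (adjusted p = 0.336). The stages overlapped for both. The 2 further rows named STIP1 were below the tested level.

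**Figure D3:**
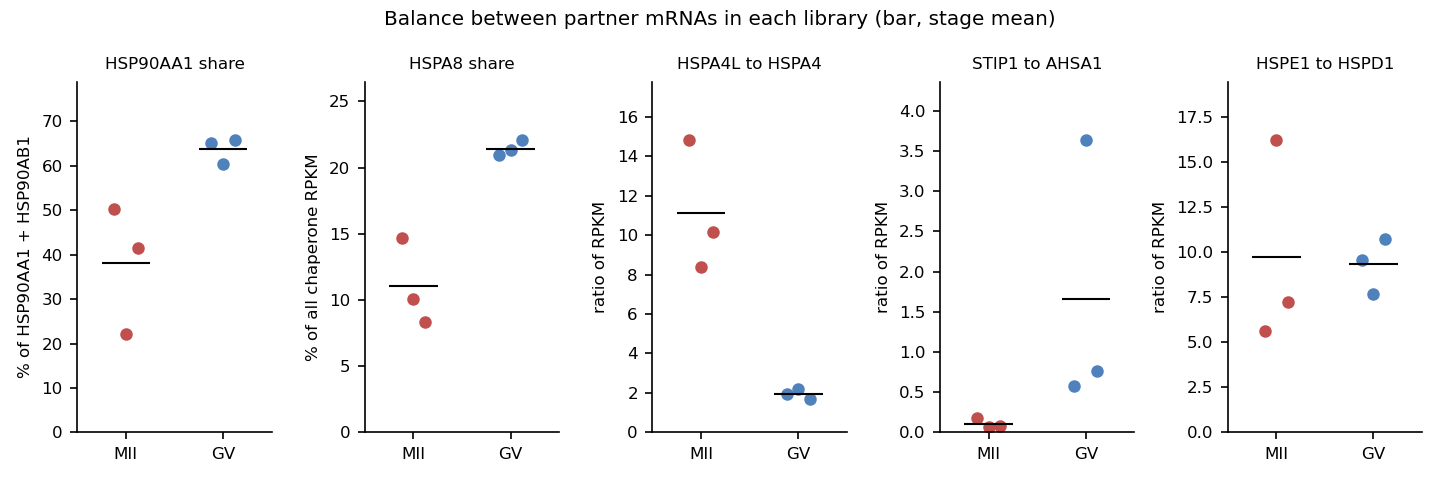
Balance between partner mRNAs in each library, MII on the left and GV on the right, with a bar at the stage mean: share of HSP90AA1 in cytosolic HSP90 (%), share of HSPA8 in all chaperone RPKM (%), and the RPKM ratios HSPA4L to HSPA4, STIP1 to AHSA1 and HSPE1 to HSPD1. The stages do not overlap in the first 4 panels and overlap in the last, where MII15 is highest.

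The mitochondrial chaperonin is a barrel of HSPD1 (HSP60) closed by a lid of HSPE1 (HSP10), and the genes lie head to head on chromosome 2, with 59 nt between the gene models. HSPE1 had 266, 227 and 247 RPKM in MII libraries, against 352, 365 and 403 RPKM in GV libraries. It fell by 0.60 ± 0.18 (SE, adjusted p = 0.0296), with no overlap. HSPD1 had 47.0, 14 and 34.0 RPKM in MII libraries and 36.8, 47.4 and 37.5 RPKM in GV libraries, which overlapped (adjusted p = 0.349).

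The HSPE1 call was lost under 9 of the 17 alternatives. Its adjusted p was 0.237 with median-ratio scaling, where the fall was 0.38, and 0.0565 without MII15, 0.0967 without MII15c, 0.0609 without GV14 and 0.106 without GV15. Without GV14c and MII15c together it was 0.152. The ratio of HSPE1 to HSPD1 was 5.66, 16.2 and 7.26 in MII libraries and 9.55, 7.70 and 10.8 in GV libraries (exact permutation p = 1). MII15 was the highest of all and the other MII libraries the lowest. The difference of 0.381 between the means was -2.88 without MII15 and -0.438 without GV14c.

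Of the 9 rows grouped by symbol as small heat shock proteins, HSPBP1 and HSPBAP1 apart, 3 reached the tested level. HSPB1 (HSP27), which holds unfolded proteins in oligomers, had 3.04, 2.86 and 2.73 RPKM in MII libraries and 3.28, 6.26 and 2.54 RPKM in GV libraries (adjusted p = 0.515). HSPB11, also known as IFT25, a subunit of the intraflagellar transport machinery of cilia, had 33.1, 35.8 and 28.1 RPKM in MII libraries, against 18.7, 21.9 and 22.5 RPKM in GV libraries. The stages did not overlap for HSPB11, and the log2 change of 0.59 did not pass (adjusted p = 0.0618).

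HSPB2-C11orf52 had the largest fall of the 61 rows on the log2(RPKM + 1) scale, while by the ratio of mean RPKM in GV over MII, 7.54 for it, DNAJA3 (18.0) and HSPBP1 (16.4) differed more. It had 9.33, 4.64 and 7.04 RPKM in MII libraries, against 46.2, 55.4 and 56.8 RPKM in GV libraries, and fell by 2.79 ± 0.28 (SE, adjusted p = 0.000139). The authors' annotation names this gene C11orf52 (chromosome 15, positions 22575919 to 22582929, plus strand), and the neighbouring HSPB2 itself was at 0 in every library. Its count among the chaperones follows from the symbol only.

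HSPB7 was also at 0 throughout, and HSPB3, HSPB6, HSPB8 and HSPB9 had means below 1 RPKM at both stages. CRYAA, a further small heat shock protein, was at 0 in every library too. CRYAB, another one, was at 0 in all MII libraries and had 0.983, 2.90 and 2.02 RPKM in GV libraries. Its mean lay below the tested level.

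The DNAJA proteins are J-domain proteins closest to bacterial DnaJ. DNAJA4, a cytosolic member (chromosome 21, positions 31177694 to 31194646, plus strand), had 9.62, 4.06 and 5.35 RPKM in MII libraries, against 40.9, 37.9 and 33.9 RPKM in GV libraries. It fell by 2.46 ± 0.31 (SE, adjusted p = 0.000462). DNAJA3, the mitochondrial member that serves HSPA9, had 0.338, 0.0910 and 0.359 RPKM in MII libraries, against 4.99, 6.80 and 2.42 RPKM in GV libraries.

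DNAJA3 was below 1 RPKM in every MII library. It fell by 2.11 ± 0.37 (SE, adjusted p = 0.00226), and with a pseudocount of 0.1 it fell by 3.72. The fall of DNAJA4 passed under all 17 alternatives, and that of DNAJA3 under the 16 that include it, all but the filter at 5 RPKM.

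DNAJA1 and DNAJA2, the main cytosolic members, did not pass. DNAJA1 had 179, 33.5 and 81.8 RPKM in MII libraries and 54.8, 69.7 and 33.7 RPKM in GV libraries, with MII15 the lowest of all libraries (adjusted p = 0.37, and 0.0381 without MII15 and 0.0468 with the replicate block). DNAJA2 had 56.4, 43.5 and 45.8 RPKM in MII libraries and 46.2, 53.5 and 29.5 RPKM in GV libraries (adjusted p = 0.579).

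Among the DNAJB proteins, DNAJB4 (chromosome 3, positions 66923000 to 66958799, minus strand), a cytosolic partner of HSP70, had the largest rise of the called rows. It had 35.8, 38.8 and 35.9 RPKM in MII libraries, against 13.9, 7.59 and 16 RPKM in GV libraries. The MII values were nearly equal, MII15 included. DNAJB4 rose by 1.55 ± 0.29 (SE, adjusted p = 0.00343), the one rise among the 5 that passed under all 17 alternatives.

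Its close relative DNAJB1, the stress-inducible HSP40, had 10.0, 0.147 and 2.18 RPKM in MII libraries and 10.6, 25.8 and 4.97 RPKM in GV libraries. The stages overlapped and the spread was wide, so the log2 change of -1.84 did not pass (adjusted p = 0.0944, and 0.0176 without MII14c). DNAJB6, which holds back aggregation of polyglutamine proteins, had 5.89, 8.01 and 4.84 RPKM in MII libraries, against 16.8, 22.4 and 17.9 RPKM in GV libraries. DNAJB6 fell by 1.48 ± 0.28 (SE, adjusted p = 0.00344), with no overlap.

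The ER-membrane pair DNAJB12 and DNAJB14 did not pass. DNAJB12 had 30.6, 18.5 and 38.0 RPKM in MII libraries and 21.3, 44.3 and 19.9 RPKM in GV libraries (adjusted p = 0.904). DNAJB14 had 18.0, 24.3 and 15.6 RPKM in MII libraries and 15.8, 4.49 and 12.4 RPKM in GV libraries (adjusted p = 0.117). The lowest MII library lay below the highest GV library in each. DNAJB5 and the ER-lumen protein DNAJB11 had log2 changes of 1.07 and 0.09 that did not pass (adjusted p = 0.0865 and 0.841).

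DNAJC is the largest and most varied J-domain family, and many members carry the J domain beside other domains that tie them to one place. Of its 33 rows 22 were tested, 7 were lower in MII, none was higher and 15 did not pass (limma). With every tested gene as background, 26.9% were lower and 13.4% were higher at the same adjusted threshold. At an unadjusted p under 0.05, 2 DNAJC rows were higher, DNAJC7 and DNAJC27. The share of all genes at the unadjusted threshold was not computed. The 3 most abundant members did not pass.

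DNAJC8, found with the spliceosome, had 137, 73.6 and 135 RPKM in MII libraries and 136, 189 and 161 RPKM in GV libraries (adjusted p = 0.16). DNAJC7, whose tetratricopeptide repeats bind HSP70 and HSP90, had 88.3, 70.6 and 74.8 RPKM in MII libraries, against 55.4, 54.8 and 48.3 RPKM in GV libraries (adjusted p = 0.0571, log2 change 0.55). DNAJC17, a nuclear J-domain protein, had 48.2, 56.0 and 67.7 RPKM in MII libraries and 66.1, 58.7 and 60.6 RPKM in GV libraries (adjusted p = 0.683). The stages overlapped for DNAJC8 and DNAJC17 and not for DNAJC7, which passed under 6 of the alternatives, without MII15 among them (0.0461).

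Of the falls in DNAJC, 3 were of ER proteins. DNAJC14, an ER-membrane protein, had 6.51, 2.49 and 3.62 RPKM in MII libraries, against 18.5, 20.8 and 12.4 RPKM in GV libraries, and fell by 1.85 ± 0.36 (SE, adjusted p = 0.00371). DNAJC18, likewise of the ER membrane, averaged 9.42 ± 1.52 RPKM in MII libraries and 30.5 ± 4.95 RPKM in GV libraries (SD, n = 3 each) and fell by 1.59 (adjusted p = 0.00141). No library overlapped for either.

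DNAJC3, which works with HSPA5 in the ER lumen, averaged 2.73 ± 0.798 RPKM in MII libraries and 8.99 ± 4.13 RPKM in GV libraries (SD, n = 3 each) and fell by 1.34 (adjusted p = 0.0263). For DNAJC3 the adjusted p was 0.0567 without MII15, 0.0785 without MII15c, 0.109 without GV14 and 0.0841 without GV15. DNAJC10, an ER reductase, had a log2 change of -0.87 that did not pass (adjusted p = 0.197).

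DNAJC6 (auxilin), which uncoats clathrin vesicles with HSPA8, averaged 0.663 ± 0.210 RPKM in MII libraries and 3.68 ± 1.69 RPKM in GV libraries (SD, n = 3 each) and fell by 1.43 (adjusted p = 0.012). Its adjusted p was 0.056 without MII15c, 0.0519 without GV14 and 0.0853 with quantile normalization, where the fall was 0.90. DNAJC21, a factor of ribosome maturation, averaged 11.6 ± 4.62 RPKM in MII libraries and 23.4 ± 1.48 RPKM in GV libraries (SD, n = 3 each) and fell by 1.03 (adjusted p = 0.0314). For DNAJC21 the adjusted p was 0.0606 without MII15c, 0.0973 without GV14, 0.0663 without GV14c, 0.0657 without GV15 and 0.0584 with the replicate block. Without GV14c and MII15c together it was 0.115.

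DNAJC19, which sits on the inner mitochondrial membrane at the import motor, came as a row on chromosome 1 with 6 coding exons and a row on chromosome 5 with 1 coding exon. The chromosome 1 row had 14.4, 19.5 and 24.7 RPKM in MII libraries, against 30.6, 40.1 and 37.2 RPKM in GV libraries, and fell by 0.87 ± 0.26 (SE, adjusted p = 0.0269). The chromosome 5 row averaged 8.16 ± 2.19 RPKM in MII libraries and 15.6 ± 3.01 RPKM in GV libraries (SD, n = 3 each), and also fell by 0.87 (adjusted p = 0.0407).

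The chromosome 5 row of DNAJC19 held 40.2% to 47.0% of the level of the other in every library, so reads may be shared and the 2 calls may be one. For the chromosome 1 row the adjusted p was 0.0798 without MII14c, 0.0722 without GV14c and 0.0778 without GV15. For the chromosome 5 row it was over the threshold without any one of the 6 libraries, between 0.0514 and 0.12. Without GV14c and MII15c together it was 0.083 for the chromosome 1 row and 0.133 for the chromosome 5 row. With median-ratio scaling the adjusted p was 0.103 for the chromosome 1 row and 0.104 for the chromosome 5 row. With quantile normalization it was 0.0949 and 0.152 in the same order. With TPM scaling it was 0.0675 for the chromosome 5 row, and the chromosome 1 row kept its call. With library weights the falls were 0.49 and 0.47.

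The remaining DNAJC rows did not pass and had log2 changes between -0.87 and 1.06. The upper end was DNAJC27, a J-domain protein with a Rab-like GTPase domain (adjusted p = 0.0722, and 0.0275 without MII15 and 0.0198 with the replicate block). DNAJC2, the ribosome partner of HSPA14, averaged 48.0 ± 8.57 RPKM in MII libraries and 55.5 ± 8.38 RPKM in GV libraries (SD, n = 3 each, adjusted p = 0.508). DNAJC9, a histone chaperone, averaged 54.8 ± 33.5 RPKM in MII libraries and 38.7 ± 11 RPKM in GV libraries (SD, n = 3 each, adjusted p = 0.665, and 0.0445 without MII15).

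By the place where the proteins work, 5 of 34 tested rows of the cytosol and nucleus were higher in MII and 8 were lower, with a median log2 change of -0.26. Over all tested genes 13.4% were higher and 26.9% lower. In the ER, 4 of 12 were lower (HSPA5, DNAJC3, DNAJC14 and DNAJC18) and none was higher, with a median of -0.15. In the mitochondrion, 4 of 9 were lower (HSPE1, DNAJA3 and both DNAJC19 rows) and none was higher, with a median of -0.86. The DNAJC19 rows may share reads, so their calls may be one. With median-ratio scaling and with quantile normalization, HSPE1 and both DNAJC19 rows lost the call and DNAJA3 kept it. At an unadjusted p under 0.05 in limma, the number higher was 0 in the ER and 0 in the mitochondrion. The share of all genes at the unadjusted threshold was not computed. The 0 in the ER depends on the fit, since some of its uncalled rows passed the adjusted threshold under alternatives. HSP90B1 passed as higher under 4 of the 17 alternatives, DNAJC16 under 2, and DNAJB12 and DNAJB14 under 1 each. DNAJC10 passed as lower under 1. The compartment medians stand beside -0.16 for all tested genes, and differences between compartments were not tested.

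**Figure D4:**
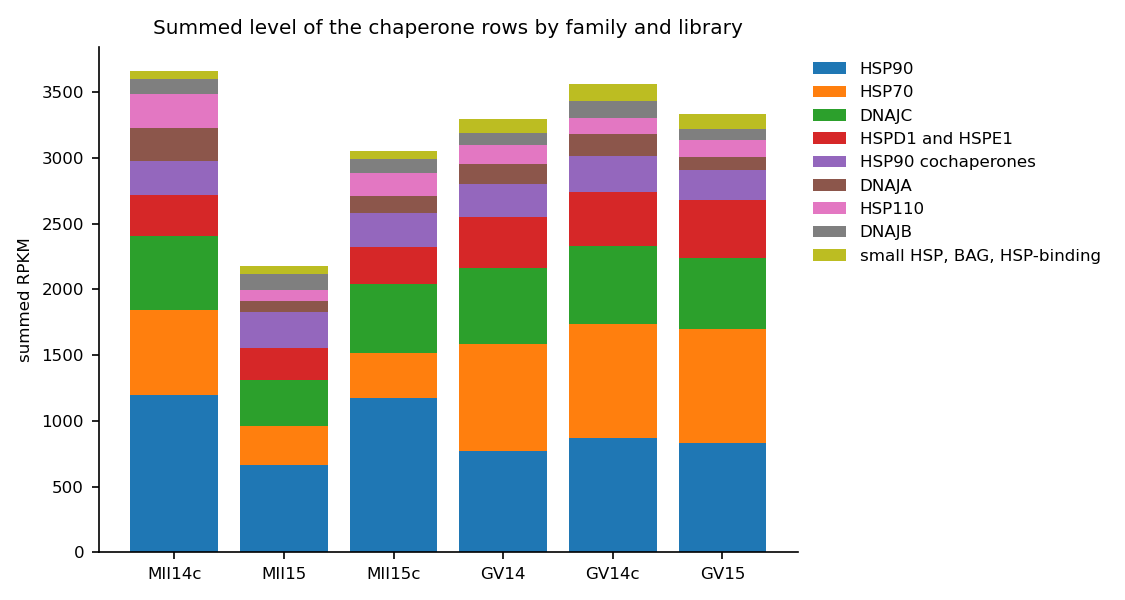
Summed RPKM of the 95 chaperone rows in each library, stacked by family, with the MII libraries on the left and the GV libraries on the right. The HSP90 segment is tallest in every MII library and the HSP70 segment is smaller there than in any GV library, and MII15 has the lowest total, 2178 RPKM.

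The summed level of all 95 rows was 3659, 2178 and 3049 RPKM in MII libraries (2962 ± 744, SD, n = 3) and 3291, 3563 and 3336 RPKM in GV libraries (3397 ± 146, SD, n = 3). The stages overlapped (exact permutation p = 0.5). The difference in summed RPKM of all chaperone rows was -434 and was -42.2 without MII15. The chaperones took 0.815% of all RPKM in MII libraries and 0.845% in GV libraries on average.

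The sum for HSP90 was 1193, 661 and 1171 RPKM in MII libraries and 768, 870.3 and 829.8 RPKM in GV libraries (exact permutation p = 0.4), with MII15 below all others. The sum for J-domain proteins of the DNAJB family was 114, 115 and 113 RPKM in MII libraries and 92.0, 127 and 82.2 RPKM in GV libraries (exact permutation p = 0.4). Chaperonin mRNA summed to 313, 241 and 281 RPKM in MII libraries, against 388, 412 and 441 RPKM in GV libraries, with no overlap (exact permutation p = 0.1).

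Other chaperones and cochaperones outside the symbol rule were taken from a list of 38 genes, of which 35 were in the table and 28 were tested. Of these 3 were higher in MII and 11 were lower, with a median log2 change of -0.68, and the list's background shares are those of all tested genes, 13.4% and 26.9%. The higher ones were the HSP90-binding immunophilin FKBP5 (1.49, adjusted p = 0.00731), the iron-sulfur J-domain protein HSCB (1.00, adjusted p = 0.0202) and the ER translocon J-domain protein SEC63 (0.70, adjusted p = 0.0424), and they are named because they are few. For HSCB the adjusted p was 0.0503 without MII14c, 0.0853 without MII15c, 0.0745 without GV14 and 0.0695 without GV15. For SEC63 it was 0.108 without MII14c, 0.119 without MII15c, 0.113 without GV14c, 0.111 without GV15 and 0.0528 with the replicate block. Without GV14c and MII15c together the adjusted p was 0.0705 for FKBP5, 0.0967 for HSCB and 0.247 for SEC63. The 4 genes of smallest p all fell.

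NACA, which shields nascent chains at the ribosome, averaged 178 ± 11.6 RPKM in MII libraries and 1039 ± 68.1 RPKM in GV libraries (SD, n = 3 each), a fall of 2.54 on the log2 scale (adjusted p = 2.9e-05). PIH1D1, of the R2TP complex that works with HSP90, fell by 3.57 (adjusted p = 0.000128), and SUGT1, an HSP90 partner at the kinetochore, by 1.99 (adjusted p = 0.000488). CLU, the secreted chaperone clusterin, fell by 2.91 (adjusted p = 0.0013).

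Regulators of the heat shock response and the unfolded protein response were a list of 18 genes, of which 10 were tested. None was higher by limma (1 at an unadjusted p under 0.05, EIF2AK3) and 3 were lower, with a median log2 change of -0.34. At the adjusted threshold, 13.4% of all tested genes were higher and 26.9% were lower. No share of all genes was computed at the unadjusted one. HSBP1, which binds the heat shock transcription factor HSF1, averaged 14.5 ± 1.29 RPKM in MII libraries and 95.1 ± 19.6 RPKM in GV libraries (SD, n = 3 each) and fell by 2.61 (adjusted p = 7.91e-05). XBP1 and ATF6, transcription factors that switch on ER chaperone genes, fell by 2.96 (adjusted p = 0.000452) and 1.94 (adjusted p = 0.00346). EIF2AK3, the ER stress kinase PERK, had a log2 change of 0.91 that did not pass (adjusted p = 0.0616, and 0.0409 without GV15).

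HSF1 itself was below the tested level, with 0.0503 ± 0.0436 RPKM in MII libraries and 0.663 ± 0.497 RPKM in GV libraries (SD, n = 3 each). HSF2, its relative of germ cells, averaged 1.83 ± 0.412 RPKM in MII libraries and 3.59 ± 2.70 RPKM in GV libraries (SD, n = 3 each, adjusted p = 0.389).

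Of the 23 chaperone rows called, 10 kept the call under every alternative that included them, 2 lost it in 1 and 11 lost it in 3 or more, and none changed sign. The 10 were DNAJB4 among the rises, and HSPB2-C11orf52, DNAJA4, HSPBP1, STIP1, DNAJA3, HSPA5, BAG3, DNAJC18 and HSPA4 among the falls. Of the 10, 7 were in all 17 alternatives, and BAG3, DNAJA3 and HSPBP1 were in 16, since their means are below the filter at 5 RPKM. DNAJB6 and DNAJC14 lost it without the columns GV14c and MII15c together, with adjusted p of 0.0592 and 0.0579.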

How the data were processed

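The authors deposited a table of RPKM values with 20707 rows and 6 columns, per the file headers, and a gene annotation extended with their reads. The submitters' processing notes name DESeq without a role, and what aligned and counted the reads is not stated in the sources used here, nor is the build. The annotation's positions are counted from 1.

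The columns GV14c and MII15c match no sample title and were used as libraries of the stage in their names. Nothing says whether libraries came from different animals, or whether the letter c marks a repeat of the same oocyte, so n counts libraries and p-values measure the spread between them only. Adapter dilution also differed between libraries, per the labels, and its part was not tested.

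Rows averaging 1 RPKM or more over the libraries entered a limma fit (version 3.58.1, R 4.3.3, eBayes with a trend) on log2(RPKM + 1), MII minus GV. Adjusted p-values are Benjamini-Hochberg over all 8671 genes, with a threshold of 0.05. The log scale understates changes of low genes. The script was checked on simulated data. No count model was run on the RPKM.

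Depth was found from low RPKM values of 3295 models made of coding sequence only: 89.2% to 95.6% of those values were within 0.1 of whole reads. At 2 kb, 1 RPKM is 41 to 65 reads, and amplified reads are not independent molecules.

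Members, gene lists and compartments were chosen with earlier results of these data known. Compartments are those of the human proteins. Per-library values are given for the 3 most abundant members of each family, the largest called changes, and a set of 23 symbols. Other called members are given with their means. Of the lists, up to 4 genes of smallest p are named. The marker lists serve to check the cell type.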

Additional observations from a re-analysis of the deposited data

How the results depend on the processing

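The count of rows higher in MII, 5 as planned, was 11 with median-ratio scaling, 14 with quantile normalization, 8 with TPM scaling, 16 with library weights and 8 where the letter c was a term. It was 1 without both untitled columns, and 1 to 12 when each library was left out in turn. The count of rows lower in MII, 18 as planned, was 11 without both untitled columns, 12 to 19 with a library left out, and 13 to 25 under the other alternatives. With the number 14 or 15 as a replicate block, 7 rows were higher and 17 lower. These numbers do not pair the stages one to one, and whether they mark a shared animal or day is not stated. Without copies that share a symbol, chosen after seeing the data, 4 rows were higher and 17 lower, and without HSPB2-C11orf52, likewise chosen, 5 and 17. The difference in the ratio of HSPE1 to HSPD1 ran from -2.88 to 2.41 with a library left out, and it changed sign without MII15 (-2.88) and without GV14c (-0.438). The cause of these shifts was not tested. The difference in summed RPKM of all chaperone rows, -434 as planned, ran from -783 to -42.2 with a library left out and was -25.0 with median-ratio scaling. The alternatives for genes of the lists were added after seeing the data. At 1 RPKM a model of 2 kb rests on 41 to 65 reads, and 3 libraries a stage limit the exact tests to a p of 0.1.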

Other observations

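The letter c in a column name, whose meaning is not stated, went with levels of some genes, chaperones among them. In a limma fit with the stage and the letter as terms, 497 of 8671 genes were higher and 135 lower in the libraries with the letter. Of the 61 tested chaperone rows, 3 were higher: the stress-inducible HSP40 DNAJB1 by 2.03 on the log2 scale (limma adjusted p = 0.028), DNAJA1 by 1.25 (0.0481) and DNAJB12 by 0.96 (0.031). In the other direction, 1 row, PTGES3, was lower by 1.10 in the libraries with the letter (0.0208). Both counts are near the shares over all genes and were not tested against them. HSPA6 had a difference of 1.48 that did not pass (0.057). With the letter as a term, the stage change of DNAJB1 passed the threshold with an adjusted p of 0.000885, and that of HSP90AA1 with 0.0172. MII15 is the only MII library without the letter, and GV14c the only GV library with it. Within MII the letter therefore cannot be told apart from what sets MII15 apart.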
